A study of Mus musculus with 11 samples.

Results

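The 9 genes described here encode the hypoxia-inducible factors (HIF) and the enzymes that couple them to oxygen: the alpha subunits Hif1a, Epas1 (HIF-2alpha) and Hif3a, their partner Arnt (HIF-1beta), the prolyl hydroxylases Egln1 (PHD2), Egln2 (PHD1) and Egln3 (PHD3), the ubiquitin ligase subunit Vhl, and the asparaginyl hydroxylase Hif1an (FIH). They were chosen by name and not by a rule on their values, but with earlier results of these data known. Their symbols were matched through the mouse GENCODE annotation to the Ensembl gene identifiers of the count data. All 9 were found among the 55359 genes counted, and all 9 passed the filter on low counts that left 17050 genes for testing.

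RNA was measured in retinal endothelial cells of C57BL/6 mice in the oxygen-induced retinopathy (OIR) model, in which pups kept in high oxygen lose retinal capillaries and, back in room air, grow pathological vessels out of an ischemic retina. All 11 mice went through this model, so no group without OIR entered these comparisons. At postnatal day 12 (P12), 5 mice received 0.5 µL of oncostatin M (OSM), a cytokine of the IL-6 family, at 100 ng/µL into the vitreous, and 6 mice received 0.5 µL of phosphate-buffered saline (PBS). At P17, DAPI-negative CD31+/CD45- cells were sorted, and both retinas of a mouse were pooled into 1 sample. Mice 1 to 4, 5 to 8 and 9 to 11 each came from 1 litter, and each litter was 1 OIR run, so litter and run cannot be told apart. Litter 3 held a single OSM-treated mouse, mouse 9. The methods describe the opposite eyes as PBS controls, and whether both eyes of a sequenced mouse had the same injection is not stated.

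The alpha subunits are made continuously. In the presence of oxygen the EGLN enzymes hydroxylate prolines in them, VHL then recognizes the hydroxylated subunit as part of a ubiquitin ligase, and the proteasome removes it. FIH hydroxylates an asparagine that otherwise would contact the coactivators p300 and CBP. When oxygen is short, an alpha subunit pairs with ARNT and switches on genes for glycolysis, vessel growth and, as feedback, Egln1 and Egln3. In endothelial cells HIF-2alpha is a prominent alpha subunit. Because most of this control acts on protein stability, the RNA levels given below describe the supply of the parts and not the activity of the factors.

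HIF dimers bind DNA at the core letters ACGTG or GCGTG. Both strands of the window from 250 bases before to 50 bases after the start site were searched for these letters in the RefSeq promoter table, which was built on GRCm38.p6. Of the 9 genes, 8 had a window there (9 windows, since Egln2 had a pair of start sites). The fragments shown are those around the ACGTG sites of the alpha subunit Hif1a and of all 3 prolyl hydroxylases, each 30 bases long, written 5′ to 3′ on the strand of the gene, with the core in capitals. Their places on GRCm39, the build of the count data, were found by a unique exact match.
Hif1a, chr12:73954494-73954523, plus strand: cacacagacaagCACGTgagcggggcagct
Egln1, chr8:125676044-125676073, minus strand: gggccgtggtgtACGTGcagcgcgcgcgga
Egln2, chr7:26866258-26866287, minus strand: agcctcctgtcaACGTGcggttcgcgcacg
Egln3, chr12:54250872-54250901, minus strand: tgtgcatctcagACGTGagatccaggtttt

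In Hif1a the marked core lay on the opposite strand, and therefore appears as its reverse complement, 135 bases before the RefSeq start. With the next base it forms the palindrome CACGTG, so ACGTG is also read there on the strand of the gene. The core lay 68 bases before the RefSeq start in Egln1, 48 in Egln2 and 229 in Egln3. In the GENCODE annotation, which places some starts elsewhere, the Hif1a fragment was inside the gene between exons and also inside the antisense lncRNA Gm15283, the Egln1 fragment was in an untranslated exon of Egln1, the Egln2 fragment was inside the gene between exons, and the Egln3 fragment was in no gene. Egln2 held 3 ACGTG and 3 GCGTG sites in this window and 1 GCGTG site in the other, Hif1a held 3 ACGTG sites, of which a pair shares the palindrome CACGTG, Egln1 held 1 of each kind, and Egln3 held 1 ACGTG site. Arnt held 1 GCGTG site and Hif3a held 2, whereas neither motif was found in the windows of Vhl and Hif1an. Of all 32851 windows in the table, 19.6% held ACGTG, 32.4% held GCGTG and 43.8% held either motif. These letters describe the windows and do not show binding in these cells.

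The libraries held 28471487 to 56033479 counts (median 35268570) in the OSM group and 26697990 to 35151928 (median 32175603) in the PBS group. The endothelial identity of the sort was visible in all of them: the summed level of 10 endothelial marker genes was 14600 to 18300 CPM (counts scaled to one common library size) after OSM and 14600 to 17400 CPM after PBS. Ptprc, which encodes CD45, had 0 to 22 reads per mouse. Marker genes of other cells were also read. Their summed CPM was 360 to 2020 for mural cell markers, 198 to 5300 for rod markers and 0.287 to 17.9 for leukocyte markers. It was 193 to 485 for Müller cell and astrocyte markers, 183 to 239 for inner retinal neuron markers and 127 to 1140 for erythroid and platelet markers. Glul, with a mean of 237 CPM, made up most of the Müller cell and astrocyte sum, followed by Sox9 with 19.2 CPM. Rbpms, with 187 CPM, made up most of the neuron sum, followed by Sncg with 21.0 CPM. Whether these sums reflect carried-over glia and neurons was not tested. Mural markers had a median sum of 537 CPM after OSM and 1040 CPM after PBS, with the treated mice below the controls in litters 1 and 3 but not in litter 2, and 0 of 10 genes had an unadjusted p under 0.05. Erythroid and platelet markers had a median of 633 CPM after OSM and 278 CPM after PBS, 5 of 8 tested genes higher at an unadjusted p under 0.05 and 0 called after adjustment. The part of either list in the values below was not tested. In such bulk samples, fewer cells of a type and less RNA per cell cannot be told apart.

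The sorted cells contained RNA for 8 of the 9 genes in every mouse, and Epas1 was the most abundant. Levels of different genes were compared per kilobase of exon (RPKM, with TMM-scaled library sizes), over the 11 mice. Epas1 had 49.5 ± 9.87 RPKM (SD, n = 11), higher than 94.6% of 13341 tested coding genes. Hif1a followed with 19.5 ± 3.12 RPKM, above 85.6% of coding genes, and Vhl with 15.8 ± 5.10, Egln1 with 14.4 ± 3.60 and Egln2 with 14.0 ± 2.32 RPKM formed a group just below it. Egln3 had 8.98 ± 4.20 RPKM and Arnt 7.63 ± 2.14 RPKM. Hif1an was close to the median coding gene, with 3.03 ± 1.58 RPKM, above 47.6% of coding genes. Hif3a was near the detection limit, with 0.074 ± 0.125 RPKM.

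**Figure D1:**
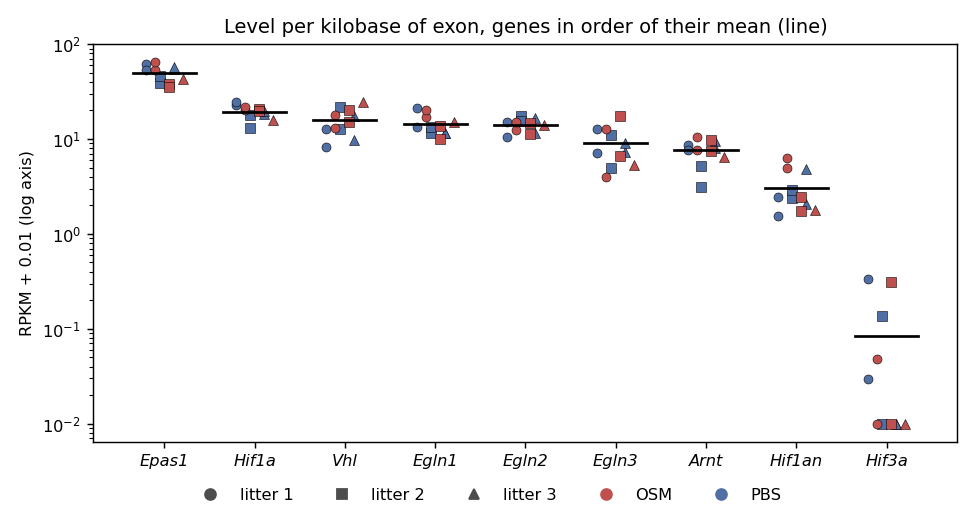
Level of the 9 genes per kilobase of exon (vertical log axis, RPKM plus 0.01) in each of the 11 mice, genes ordered by their mean (horizontal line), with shape for litter and colour for treatment. Epas1 lies highest in each mouse, Hif1a to Arnt span a range from 19.5 to 7.63 RPKM on average, Hif1an lies lower at 3.03, and Hif3a lies at the bottom, with 6 mice at 0.

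Neighbours in this order were compared within mice by an exact sign-flip permutation test of the log2 ratio (two-sided, 2048 sign patterns, adjusted over 8 pairs). Epas1 exceeded Hif1a in 11 of 11 mice, by 1.34 ± 0.27 on the log2 scale (adjusted p = 0.0026 by the exact permutation test; its unadjusted p, 0.000977, is the smallest these permutations can give). Arnt exceeded Hif1an in 11 of 11 mice, by 1.42 ± 0.70 (adjusted p = 0.0026 by the same exact test), and Hif1an exceeded Hif3a in 11 of 11 mice (adjusted p = 0.0026 by the same exact test). Egln2 exceeded Egln3 in 8 of 11 mice, by 0.77 ± 0.76 (adjusted p = 0.0195 by the same exact test). The other 4 steps, from Hif1a to Vhl, Vhl to Egln1, Egln1 to Egln2 and Egln3 to Arnt, did not differ beyond their spread, with exact permutation adjusted p from 0.13 to 0.912 and the same order in 5 to 8 of 11 mice. The length used matters for the middle of the order. With the longest transcript in place of all exons, Egln2 came second at 25.0 RPKM, Egln1 went to 22.1 and Hif1a to 23.7 RPKM, Vhl was below them at 17.2 RPKM, and Arnt, at 15.0, passed Egln3, at 8.98, whereas Epas1, at 50.4, stayed first, Hif1an eighth and Hif3a last.

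The 9 genes differed widely in how evenly they were expressed among mice. After litter and treatment were fitted, the residual SD of log2 CPM was 0.154 for Epas1, a value lower than that of all but 3.96% of the 17050 genes tested. It was 0.221 for Hif1a, 0.257 for Egln1 and 0.276 for Egln2 (11.3%, 16.0% and 18.4% of genes were lower). Vhl had 0.435 and Arnt 0.467. Hif1an had 0.748 and Egln3 0.777, somewhat above the median of 0.676 over all genes. Hif3a, near the detection limit, had 2.31, above 90% of genes. The 95% interval of the OSM effect lay within a log2 change of 1 in either direction for 7 of the 9 genes, all but Hif3a and Hif1an, and for 40.9% of all genes tested. Neither comparison with all genes was matched for level. Epas1, Hif1a, Egln1 and Egln2 each lay above 80.6% or more of coding genes in RPKM.

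None of the 9 genes was called as changed after OSM. In edgeR's quasi-likelihood test with litter as a term and Benjamini-Hochberg adjustment over all genes tested, 0 of 9 genes were called at an adjusted p under 0.05, and the same test called 0 of 17050 genes in all (0%). At an unadjusted p under 0.05 it found 846 genes, which is 4.96% of all genes, and again 0 of the 9. DESeq2's Wald test was run on the 28940 genes with a read, with its default filtering by mean count in place of the filter used in edgeR. It called 168 genes and 0 of the 9. The OSM and PBS groups overlapped for each of the 9 genes, while 0.405% of all genes had groups that did not overlap. The values of each gene follow in CPM scaled by TMM, first for the 5 OSM-treated mice in the order of mice 1, 2, 5, 6 and 9.

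**Figure D2:**
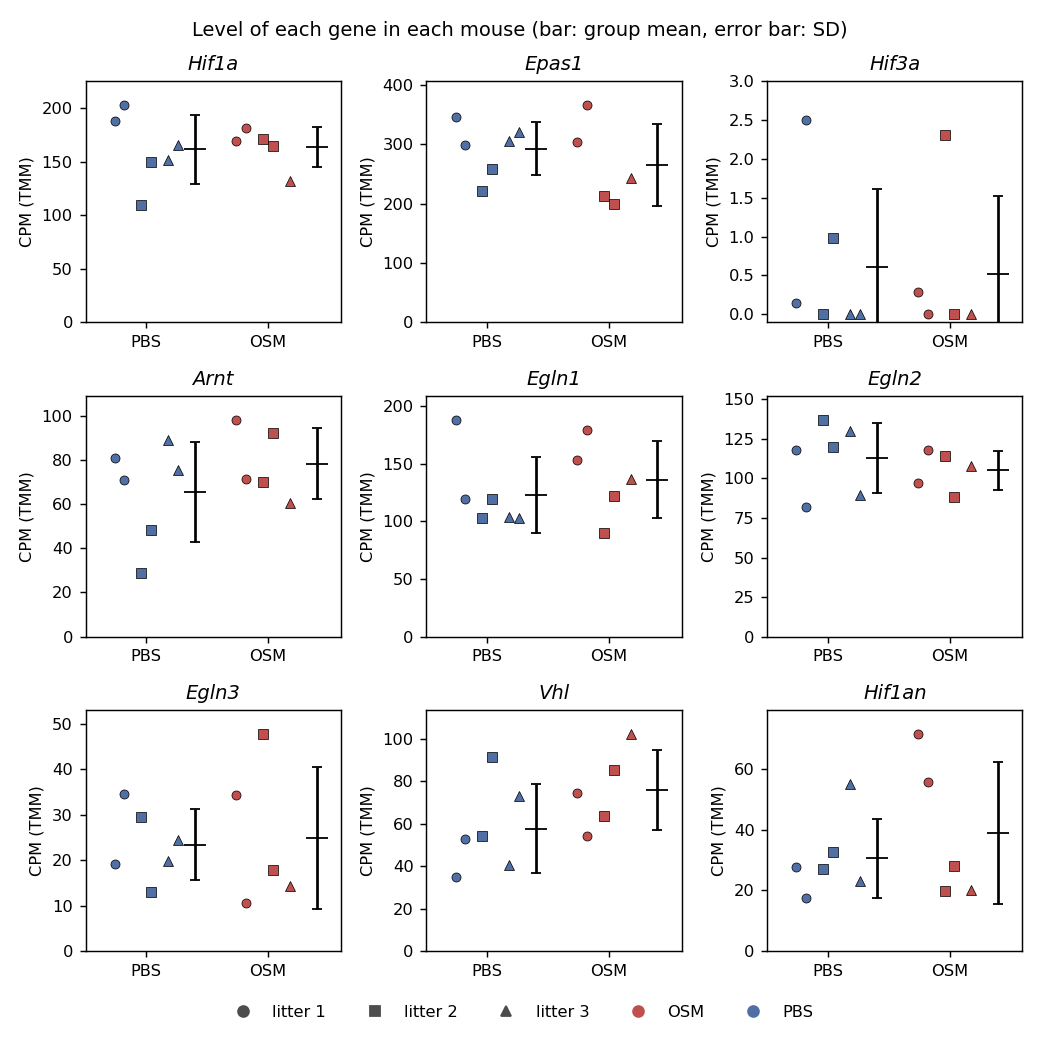
Level of each gene (vertical axis, CPM scaled by TMM, a separate axis for each gene) in each mouse by treatment, with shape for litter; the bar beside the points is the group mean and its error bar the SD (n = 6 for PBS, n = 5 for OSM). The groups overlap in all 9 panels, litter 1 (circles) lies above litter 2 (squares) for Epas1, and Hif3a is at 0 in 6 mice; its error bars run off the axis at the lower end.

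Hif1a (ENSMUSG00000021109, GRCm39 chromosome 12, 73948149 to 73996321), the alpha subunit present in nearly all cell types, had 169, 182, 171, 165 and 132 CPM after OSM. The controls ranged from 110 to 203 CPM with a median of 159. The treated mice lay inside the range of the controls, and 4 of 5 were above the control median. The log2 fold change was 0.01 (SE 0.13, 95% interval -0.27 to 0.30, adjusted p = 1), a fold of 1.01 with an interval from 0.83 to 1.23. An antisense lncRNA, Gm15283, covers 8.33% of the Hif1a exon sequence, and it had 0 to 78 reads per mouse against 3593 to 7373 for Hif1a. The library kit and counting carried no strand, so reads of the shared stretch could not be assigned to either gene and were left out.

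Epas1 (ENSMUSG00000024140, chromosome 17, 87061087 to 87140838), the alpha subunit named for the endothelium, had 304, 366, 213, 200 and 243 CPM after OSM. In the PBS group it ranged from 222 to 346 CPM with a median of 302. The 2 highest treated values, both from litter 1, lay above the control median and the other 3 below it. The group means were 265 ± 69.1 CPM (SD, n = 5) after OSM and 292 ± 44.7 CPM (SD, n = 6) after PBS. The log2 fold change was -0.15 (SE 0.10, 95% interval -0.37 to 0.06, adjusted p = 1), the narrowest interval among the 9 genes, and it allows a fold between 0.775 and 1.05.

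Hif3a (ENSMUSG00000004328, chromosome 7, 16764918 to 16796352), whose shorter forms can oppose the other alpha subunits, was read in 5 of 11 mice, with 196 reads in all. After OSM it had 10 reads in mouse 1, 68 in mouse 5 and 0 in mice 2, 6 and 9. After PBS it had 4 reads in mouse 3, 80 in mouse 4, 34 in mouse 8 and 0 in mice 7, 10 and 11. A count of 0 allows up to 3 counts, or 0.0536 to 0.105 CPM in these 6 libraries, a limit that covers counting error only, since PCR copies without molecular identifiers do not count as separate molecules. The fitted log2 fold change, -0.79 (SE 2.48, 95% interval -6.42 to 4.84), depends on the counts near 0 and gives no usable size. In mice 4 and 5, the samples with the highest Hif3a (2.50 and 2.31 CPM), the summed leukocyte markers were also the highest, at 17.9 and 14.7 CPM. The other mice did not follow this order: mouse 8, the next in Hif3a with 0.976 CPM, had a leukocyte sum of 0.316 CPM, and mouse 3, with 4 Hif3a reads, had one of 12.8 CPM. The sort had gated out CD45+ leukocytes. The rod markers summed to 560 CPM in mouse 4 and 5300 CPM in mouse 5. The part of these cells in the Hif3a signal was not tested.

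The supply of HIF-2alpha RNA relative to HIF-1alpha RNA was alike in most mice. Per kilobase of exon, Epas1 exceeded Hif1a 2.56 ± 0.437 times over all mice (SD, n = 11), with 2.39 ± 0.542 after OSM (n = 5) and 2.71 ± 0.305 after PBS (n = 6). The lowest ratios were 1.84 and 1.79, in the OSM-treated mice 5 and 6 of litter 2. The 2 control mice of that litter had 2.97 and 2.55, the lowest control of all was mouse 4 of litter 1 with 2.18, and the groups overlapped.

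Arnt (ENSMUSG00000015522, chromosome 3, 95341365 to 95404551) encodes the constitutive partner of the alpha subunits and of the dioxin receptor. It had 98.1, 71.1, 69.8, 91.9 and 60.3 CPM after OSM. The controls spanned 29.0 to 89.1 CPM with a median of 73.2. The lowest values, 29.0 and 48.1 CPM, belonged to the control mice 7 and 8 of litter 2, and the other mice of both groups were intermixed. OSM against PBS gave a log2 fold change of 0.36 (SE 0.25, 95% interval -0.19 to 0.92, adjusted p = 1). Without litter 2 it was -0.08, and without 1 mouse at a time it ran from 0.15 (without PBS mouse 7) to 0.61 (without OSM mouse 9, adjusted p = 1).

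Egln1 (ENSMUSG00000031987, chromosome 8, 125635308 to 125676865), the main oxygen sensor among the prolyl hydroxylases, had 153, 179, 89.5, 122 and 137 CPM after OSM. PBS-treated mice ranged from 103 to 188 CPM with a median of 111. The highest value of all mice, in control mouse 3, stood well above the other controls, the next of which had 119 CPM. The estimated log2 fold change was 0.12 (SE 0.15, 95% interval -0.20 to 0.44, adjusted p = 1).

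Egln2 (ENSMUSG00000058709, chromosome 7, 26853588 to 26866408), a prolyl hydroxylase that is not itself induced by hypoxia, had 96.9, 118, 114, 88.2 and 108 CPM after OSM. In controls the range was 82.0 to 137 CPM with a median of 119. All 5 treated mice lay below the control median but inside the control range. OSM against PBS gave a log2 fold change of -0.10 (SE 0.16, 95% interval -0.44 to 0.24, adjusted p = 1). The neighbouring gene Cyp2t4 on the opposite strand covers 20.8% of the Egln2 exon sequence and had 0 to 16 reads per mouse. Reads of this shared stretch were left out too, whereas RPKM was calculated over the full exon length. The RPKM of Egln2 and its share among the prolyl hydroxylases may therefore be too low. The low Cyp2t4 count does not measure this loss. The RPKM of Hif1a has the same limit, over a shorter stretch.

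Egln3 (ENSMUSG00000035105, chromosome 12, 54225767 to 54250673), the prolyl hydroxylase most strongly induced by HIF in many cells, had 34.3, 10.6, 47.7, 17.8 and 14.4 CPM after OSM. The control range was 13.1 to 34.5 CPM with a median of 22.2. The treated mice held both the highest and the lowest value of the whole set, 4.49-fold apart. The log2 fold change was -0.01 (SE 0.42, 95% interval -0.93 to 0.91, adjusted p = 1), which allows a fold between 0.523 and 1.88. The highest Egln3 value was that of mouse 5, which also had the highest rod marker sum, 5300 CPM, and the lowest Egln1 value. The next highest rod sums, 1770 CPM in mouse 6 and 1470 CPM in mouse 10, came with 17.8 and 19.8 CPM of Egln3, whereas mice 4 and 1 had 34.5 and 34.3 CPM of Egln3 at rod sums of 560 and 449 CPM. The part of rod RNA in Egln3 was not tested.

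The makeup of the prolyl hydroxylase pool varied from mouse to mouse. Of the summed RPKM of the 3 genes, Egln1 made up 38.5% ± 8.29, Egln2 37.7% ± 6.10 and Egln3 23.7% ± 9.68 (SD, n = 11). The Egln3 share ran from 10.1% in mouse 2 to 41.8% in mouse 5, both OSM-treated, and the group means were 23.7% ± 12.5 after OSM and 23.8% ± 7.86 after PBS. The Egln1 share, which must fall where another share grows, was largest in mouse 2, at 51.2%, and smallest in mouse 5, at 23.6%. Over the 11 mice, log2 CPM of Egln1 and Egln3 centred on litter had a Pearson correlation of -0.81, and centred on litter and treatment of -0.82. The points share libraries and total counts, and this correlation is given as a description.

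**Figure D3:**
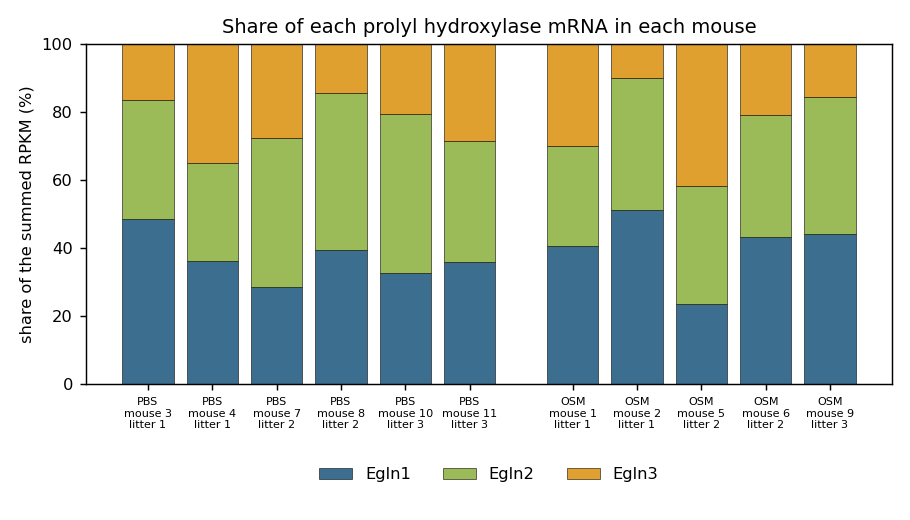
Share of Egln1, Egln2 and Egln3 in their summed RPKM (vertical axis, percent) in each mouse, 6 PBS bars on the left and 5 OSM bars on the right. The Egln3 share lies between 10.1% (OSM mouse 2) and 41.8% (OSM mouse 5), a range that also holds all 6 controls.

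Vhl (ENSMUSG00000033933, chromosome 6, 113600920 to 113608599), the substrate receptor of the ligase that removes hydroxylated alpha subunits, had 74.3, 54.2, 63.4, 85.3 and 102 CPM after OSM. In the PBS group the range was 34.7 to 91.2 CPM with a median of 53.5. All 5 treated mice were above the control median, but 2 controls, mouse 8 with 91.2 and mouse 11 with 72.9 CPM, lay among them. The means were 75.9 ± 18.8 CPM (SD, n = 5) after OSM and 57.7 ± 21.0 CPM (SD, n = 6) after PBS. The log2 fold change was 0.44 (SE 0.23, 95% interval -0.07 to 0.95, unadjusted p = 0.0867 and adjusted p = 0.955 by edgeR), the smallest p among the 9 genes. Vhl was the one member with the same sign in all 3 litters, at 0.57, 0.07 and 0.91 on the log2 scale, which 23.0% of all genes shared.

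Hif1an (ENSMUSG00000036450, chromosome 19, 44551286 to 44568723), the asparaginyl hydroxylase that limits coactivator binding, had 71.3, 55.7, 19.8, 28.0 and 20.1 CPM after OSM. PBS-treated mice spanned 17.6 to 54.9 CPM with a median of 27.5. The treated mice of litter 1, mice 1 and 2, held the 2 highest values of the set, whereas the other treated mice lay inside the control range. The log2 fold change over all litters was 0.21 (SE 0.42, 95% interval -0.72 to 1.15, adjusted p = 1), and without litter 1 it was -0.57.

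**Figure D4:**
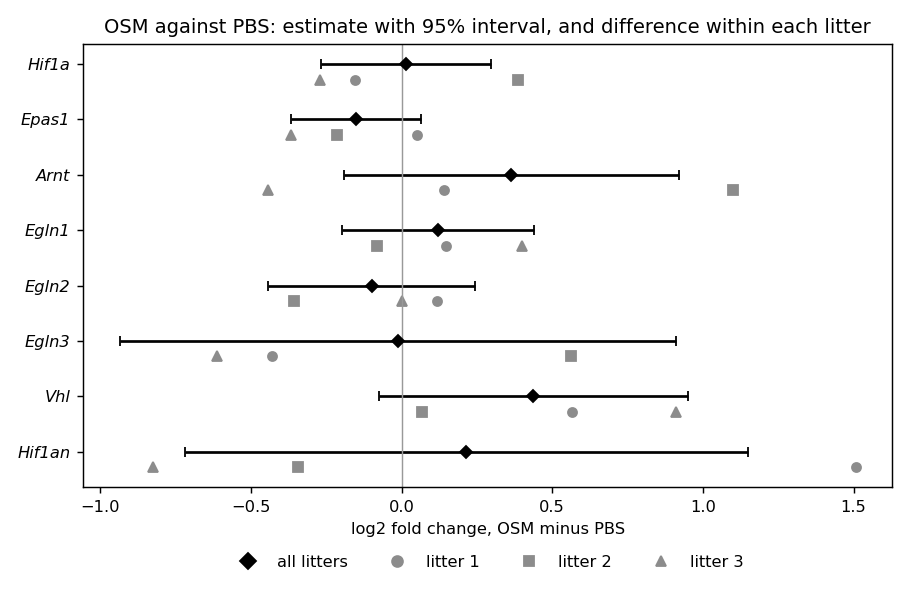
OSM against PBS for 8 of the genes (horizontal axis, log2 fold change): the diamond is the estimate with litter as a term with its 95% interval, and the grey symbols below it are the differences of mean log2 CPM within each litter. All 8 intervals include 0, Vhl is the only gene with all 3 grey symbols to the right of 0, and Hif1an spreads from -0.83 to 1.51. Hif3a, with 6 mice at 0, is left out.

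The difference between OSM and PBS was next taken within each litter, from log2 CPM with a prior count of 2, and the difference between litters was tested as an interaction. Litter 1 and litter 2 each had 2 mice per treatment, and litter 3 had 1 treated mouse and 2 controls. Hif1an differed by 1.51 in litter 1, by -0.34 in litter 2 and by -0.83 in litter 3. In edgeR its interaction had an unadjusted p of 0.0138 and an adjusted p of 0.628. Arnt differed by 0.14, 1.10 and -0.44, with an unadjusted p of 0.0252 and an adjusted p of 0.693 in edgeR. Both genes thus pointed in different directions in different litters, and neither was called. These 2 of the 9 genes, and 6.42% of all genes, had an unadjusted p under 0.05, and 0 genes were called (0%). Hif1an crossed the threshold in edgeR without a filter on low counts (adjusted p = 0.0326). It also crossed it in DESeq2's likelihood ratio test with DESeq2's default filtering (adjusted p = 0.0444). Its adjusted p over 17 alternatives ranged from 0.0326 to 0.899.

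Hif1a had differences of -0.16, 0.39 and -0.27, with the sign of Arnt in litters 2 and 3 and the opposite sign in litter 1. For Epas1 the differences were 0.05, -0.21 and -0.37, and for Egln1 0.15, -0.08 and 0.40. Egln2 had 0.12, -0.36 and 0.00, and Egln3 -0.43, 0.56 and -0.61. For Hif1a the interaction p was 0.0673, and it was 0.211 or more for the others. Egln3 and Hif1a had their only positive difference in litter 2. For Hif1a, the treated mice of that litter had 171 and 165 CPM, and its controls, with 110 and 150 CPM, were the lowest of the PBS group. Hif1a and Arnt also varied together among mice, with a Pearson correlation of 0.74 after centring on litter (n = 11) and 0.79 after centring on litter and treatment. This was the highest positive correlation among pairs of the 9 genes, picked after the values were seen. The points share libraries, and it is given as a description.

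Epas1 and Egln1 had the lowest p of the 9 genes between litters, and both were highest in litter 1. Epas1 had 329 ± 32.5 CPM (SD, n = 4) in litter 1, 223 ± 25.2 CPM (n = 4) in litter 2 and 290 ± 41.5 CPM (n = 3) in litter 3. The ranges of litters 1 and 2, 299 to 366 and 200 to 259 CPM, did not overlap. With treatment as a term, litter 2 was lower than litter 1 by a log2 difference of -0.56 (SE 0.11) and than litter 3 by -0.35 (SE 0.12). The test over the 3 litters gave an unadjusted p of 0.00149 and an adjusted p of 0.150 in edgeR, so Epas1 was not called. It was called in edgeR without a filter on low counts (adjusted p = 0.0339). It was also called in DESeq2's likelihood ratio test with DESeq2's default filtering (adjusted p = 0.000468). The range over 17 alternatives was 0.000468 to 0.349.

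Egln1 had 160 ± 31.0 CPM (SD, n = 4) in litter 1, 108 ± 15.2 CPM (n = 4) in litter 2 and 115 ± 19.1 CPM (n = 3) in litter 3, with overlapping ranges. Litter 2 differed from litter 1 by -0.55 (SE 0.17) and litter 3 from litter 1 by -0.46 (SE 0.19) on the log2 scale (unadjusted p = 0.0162, adjusted p = 0.349, edgeR). The other 7 genes had an unadjusted p of 0.096 or more, among them Hif3a, which had no read in any mouse of litter 3. Between litters, 2 of the 9 genes had an unadjusted p under 0.05 against 10.3% of all genes, and 0 of 9 were called against 3 genes in all (0.0176%).

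The proteins around this core were examined as a list of 20 HIF regulators, which includes the subunits of the VHL ligase (Elob, Eloc, Cul2 and Rbx1), the coactivators Ep300 and Crebbp, and chaperones. Of the 19 tested, 0 were called in either direction and 0 had an unadjusted p under 0.05. Their fold changes were evenly split, with 10 above and 9 below 0 and a median log2 fold change of 0.01, against -0.01 over all genes. The most abundant were Hsp90ab1, a chaperone that holds HIF-1alpha, with a log2 fold change of 0.01 (SE 0.07) at a mean of 1912 CPM, and Rack1, a scaffold that competes with it, with -0.06 (SE 0.08) at 459 CPM. Arnt2, the neuronal relative of Arnt, did not pass the filter and had at most 3 reads in a mouse, so Arnt was the beta subunit read in these cells.

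Among 36 genes widely known as HIF targets, 0 were called and 1 had an unadjusted p under 0.05, with 20 log2 fold changes above and 16 below 0 (median 0.04). That gene was Ero1a, an oxidase of the endoplasmic reticulum that supports disulfide formation, with 44.5 ± 15.2 CPM (SD, n = 5) after OSM and 31.3 ± 9.50 CPM (SD, n = 6) after PBS. The log2 fold change of Ero1a was 0.59 (SE 0.23, unadjusted p = 0.0252, adjusted p = 0.955, edgeR), with 0.58, 0.79 and 0.15 within the litters. The most abundant targets differed little. Slc2a1, the glucose transporter GLUT1 of the blood-retina barrier, had 4113 ± 976 CPM after OSM and 3732 ± 945 CPM after PBS (log2 fold change 0.08, SE 0.08). Ldha, lactate dehydrogenase, had 1503 ± 183 and 1485 ± 220 CPM (log2 fold change -0.02, SE 0.06).

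Of 16 genes that HIF or hypoxia is known to regulate in endothelium, 0 were called and 1 was lower at an unadjusted p under 0.05, with 8 above and 8 below 0 (median -0.01). This was Cxcr4, the chemokine receptor of tip cells, with 19.9 ± 3.85 CPM (SD, n = 5) after OSM and 30.5 ± 8.82 CPM (SD, n = 6) after PBS. For Cxcr4 the log2 fold change was -0.61 (SE 0.23, unadjusted p = 0.0249, adjusted p = 0.955, edgeR), with -0.97 and -0.76 in litters 1 and 2 and 0.18 in litter 3. The most abundant were the VEGF receptors Kdr, with a mean of 2003 CPM (log2 fold change -0.03, SE 0.12), and Flt1, with 1532 CPM (0.02, SE 0.09). Between litters, 7 of these 16 genes and 12 of the 36 HIF targets had an unadjusted p under 0.05 in edgeR. The same held for 3 of the 19 tested HIF regulators and for 10.3% of all genes. In these lists 0 genes were called. The comparison with all genes was not matched for level, and the cause of the litter differences was not tested.

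EGLN enzymes are oxygen-dependent dioxygenases, a broad class that also includes histone and DNA demethylases. Of 20 other enzymes of this class, 0 were called and 0 had an unadjusted p under 0.05. Their median log2 fold change was -0.18, with 7 above and 13 below 0. Between litters, 3 of the 20 had an unadjusted p under 0.05 in edgeR, and 0 were called. The most abundant were Kdm5b, a histone H3 demethylase, with a mean of 158 CPM (log2 fold change -0.24, SE 0.13), and Fto, an RNA demethylase, with 127 CPM (-0.18, SE 0.12).

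**Figure D5:**
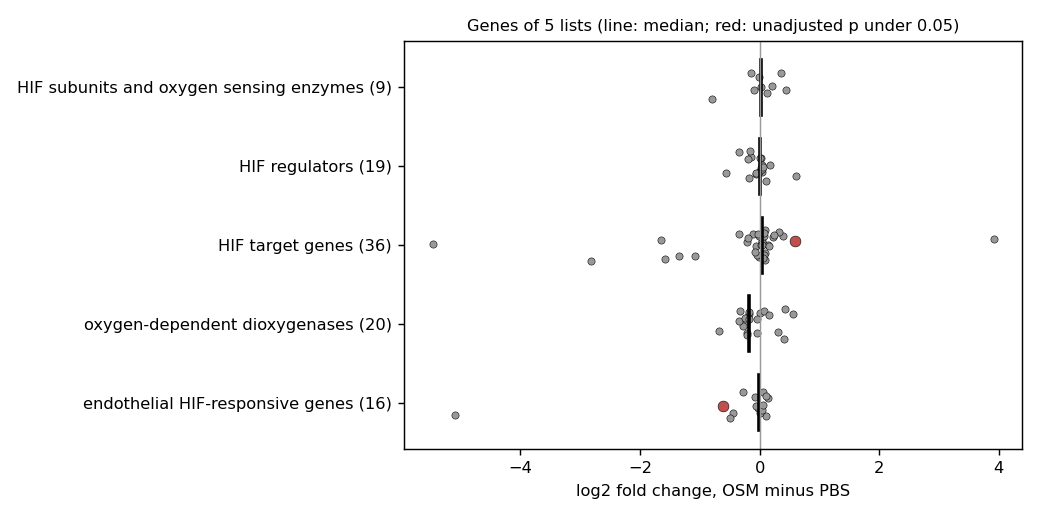
Log2 fold change of OSM against PBS (horizontal axis) for each tested gene of 5 lists, the number tested in brackets, with the median as a black line. The medians lie between -0.18 and 0.04, and the 2 red points with an unadjusted p under 0.05 are Ero1a among the HIF targets and Cxcr4 among the endothelial genes; the far points are genes with counts near 0 in some mice.

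For each of the 9 genes, the genes whose log2 CPM centred on litter followed it most closely over the 11 mice were also sought among all genes tested. These likenesses are descriptions over points that share libraries. Each named gene was picked for its high value among 17050 genes over 11 mice, and such a search can give high values by itself. The closest were Cand1 (r = 0.95) and Wdr12 (0.95) for Hif1a, Rnaset2a (0.94) and Rab11fip3 (0.94) for Epas1, and Bag3 (0.96) and Zdhhc21 (0.95) for Arnt. For the hydroxylases they were Gm53023 (0.96) and Pdf (0.96) with Egln1, Ruvbl1 (0.98) and 1700123O20Rik (0.97) with Egln2, Itpr3 (0.92) and Cmpk1 (0.92) with Egln3, and Adap1 (0.92) and Peak1 (0.91) with Hif1an. Vhl was followed most closely by Tfrc (0.93) and Mylpf (0.92), and Hif3a by Slc6a9 (0.99) and Spire2 (0.95). When treatment was centred as well, 5 of these 18 genes were again among the closest pair of the same member: both genes of Egln1, both of Egln2, and Slc6a9. Several of the 18 were read at low levels. Mean CPM was 0.149 for Rnaset2a, 0.23 for Gm53023, 0.467 for Slc6a9, 0.532 for Spire2, 0.7 for Adap1 and 0.976 for Pdf. Hif3a itself had reads in 5 of 11 mice.

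Set against the 36 HIF targets, no member followed them as a group: the median correlation over the targets lay between -0.114 for Egln1 and 0.101 for Hif1a. Single targets stood out, picked here after their values were seen. Tfrc, the transferrin receptor, had r = 0.93 with Vhl, Slc16a3, the lactate exporter MCT4, had 0.83 with Egln3, and Vegfa had 0.82 with Epas1. Vegfa itself was low in these cells, with 0 to 693 reads per mouse, 2.87 ± 3.98 CPM (SD, n = 5) after OSM and 6.83 ± 7.68 CPM (SD, n = 6) after PBS. Of the 36 targets, a correlation above 0.6 was reached by 5 with Hif3a, 4 with Vhl and 0 with Egln1, and over all genes tested by 3.95%, 4.77% and 5.25%. Hif3a was read in only 5 of 11 mice, which limits its correlations. With each other member, 1 or 2 targets reached it, and 3.98% to 6.09% of all genes. These counts leave out negative correlations, some of which were as large in size. The lowest was -0.869, between Egln1 and Pfkp. Egln1 also had -0.812 with Tpi1, and Hif1a had -0.785 with Ddit4.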

How the data were processed

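Sorted retinal endothelial cells of 11 mice (5 OSM, 6 PBS) were sequenced by the authors as poly(A)-primed, PCR-amplified cDNA with single reads. The authors used STAR for alignment to GRCm39 and featureCounts, on GENCODE genes, for counting, both at standard settings, that is, without strand and without reads that overlap several genes. The deposited values are raw counts per gene, without normalization, for 55359 genes per mouse. Of these, 54749 matched the GENCODE annotation used here (vM39) and 610 did not, and all were kept. The column headers for mice 10 and 11 name mice 11 and 12. Both are PBS mice of litter 3, and the sample labels were followed. The in vitro samples were not analysed here.

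Tests used edgeR 4.0.16 in R 4.3.3, with TMM scaling, filterByExpr (count minimum 10, on the design), a robust quasi-likelihood fit, litter and treatment as terms, and Benjamini-Hochberg adjustment over 17050 genes with a threshold of 0.05. The SE of a log2 fold change was calculated from its F statistic. Litters and the interaction were tested on 2 coefficients together. RPKM used the exons of all transcripts of a gene in vM39, and exon overlaps between genes were taken from it too. The authors counted on an earlier GENCODE release, so these lengths and overlaps can differ from the exons counted. Alternatives were DESeq2 1.42.0 (on all genes with a read, with its default filtering by mean count), other scalings and filters, no litter term, and leaving out each mouse or litter. The scripts were tested on simulated counts. No libraries were copies of each other (chi-square per gene of at least 67.6 for each pair). Total counts were 26697990 to 56033479 per mouse, and the spread between mice, not counting error, sets the precision. The 9 genes and all lists were chosen with earlier results of these data known. Genes were named by rule: all 9, list genes with an unadjusted p under 0.05, the 2 most abundant of each list, and the 2 most like each member.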

Additional observations from a re-analysis of the deposited data

Results flagged for a closer look

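Among 18 groups (9 genes, each in OSM and in PBS mice), 2 held a mouse whose gap to its nearest neighbour, divided by the range of the group, was above Dixon's 95% critical value. Chance alone flags about 1 in 20 groups of normally distributed values. This rate need not hold for Hif3a in the OSM group, where the median was 0 CPM. In the PBS group, Egln1 was 188 CPM in mouse 3 of litter 1, from 4950 reads, with the next control at 119 CPM (a gap of 0.812 of the range). In the OSM group, Hif3a was 2.31 CPM in mouse 5 of litter 2, from 68 reads, with the next treated mouse at 0.287 CPM (a gap of 0.876 of the range).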

How the results depend on the processing

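None of the 9 genes was called for OSM under any alternative, with the lowest adjusted p at 0.684 (Vhl). Epas1 (-0.28 to -0.08), Vhl (0.29 to 0.67) and Egln1 (0.02 to 0.23) kept the direction of their log2 fold change in all 22 alternatives. The estimates of the other genes changed sign in at least 1 alternative. Egln3 was 0.0894 in edgeR and 0.0853 in DESeq2 without the litter term, 0.15 without litter 1 and 0.18 without litter 3. Without litter 1, Hif3a was 1.01 and Hif1an -0.57. Without litter 2, Hif1a was -0.21, Arnt -0.083 and Egln2 0.048. Without 1 mouse at a time the ranges were -0.36 to 0.21 for Egln3, -0.10 to 0.10 for Hif1a, -0.11 to 0.58 for Hif1an, 0.15 to 0.61 for Arnt and -3.46 to 0.61 for Hif3a. Over all genes, OSM calls went from 0 to 65 in edgeR without a filter on low counts. In DESeq2, with its default filtering (28940 genes with a read), they went to 168 with and 88 without litter. Calls between litters went from 3 to 15 with upper quartile scaling, 14 with a mean above 10 counts, 625 in edgeR without a filter and 988 with DESeq2. They were 0 to 44 without 1 mouse, highest without PBS mouse 8. Interaction calls went from 0 to 305 in edgeR without a filter and 673 with DESeq2, and were 0 to 1 without 1 mouse. In edgeR without a filter, and likewise with DESeq2, 1 of the 9 genes was called between litters (Epas1) and 1 for the interaction (Hif1an). With the longest transcript as length, 5 of 8 neighbouring pairs kept their order, and 7 to 8 did without 1 mouse. The cause of these shifts was not tested. No paired analysis was possible because treated and control mice share no replicate numbers, and litter was a term instead. Hif3a had at most 80 reads in a mouse and 0 in 6, the deepest library (56033479 counts) among them.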
